A study of Homo sapiens with 2 samples.

Results

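The genes described here are the zinc finger genes of human chromosome 19 that carry a ZNF number as their name. They were taken from the deposited table as every gene whose name begins with ZNF and a digit and whose position lies on chromosome 19. The table holds 249 such genes among 20263 genes in all. Their RNA levels were compared between 2 RNA-seq libraries made from the human embryonic stem cell line H9. One library came from cells treated for 48 h with small interfering RNA against HNRNPA1 (siHNRNPA1), which encodes hnRNP A1, an RNA-binding protein that takes part in splicing. The other came from cells given a control small interfering RNA (sicontrol) for the same time. No other genotype or treatment separates the groups in the labels. The labels match values in the table to 1 library per condition, so no difference below has a replicate check, and no test and no p-value are given.

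Zinc finger proteins of this kind bind DNA through a row of short repeats, each of which folds around a zinc ion and reads a few bases. Many also carry a Krüppel-associated box (KRAB) near the amino end. KRAB binds the corepressor TRIM28, which brings the histone methyltransferase SETDB1 and heterochromatin proteins to the bound site. In human embryonic stem cells and in early embryos, this machinery is known for silencing retroelements. The family grew by tandem duplication, and chromosome 19 carries long clusters of related members that lie side by side.

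HNRNPA1 was at 179.9 FPKM (fragments per kilobase of transcript, scaled to the depth of the library) in the siHNRNPA1 library and at 663 FPKM in the control library, or 27.1% of control. All 8 pluripotency markers on the list were above 1 FPKM in both libraries. POU5F1 was at 1355 FPKM after siHNRNPA1 and 864 FPKM in the control, and SOX2 at 58.3 and 126 FPKM. The fibroblast genes COL3A1, DCN and LUM were listed at 0 in both libraries, while THY1 (181 and 233 FPKM), COL1A1 and COL1A2 were detected. Neural, mesoderm and trophoblast markers stayed under 1 FPKM in both libraries, and the endoderm gene FOXA2 was at 1.52 FPKM after siHNRNPA1 and listed at 0 in the control. The total estimated count was 28147828 for siHNRNPA1 and 26680342 for the control.

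Many members resemble each other in sequence, which bears on how reads can be assigned to them. The following stretches, each 81 bases long, code for 1 zinc finger and the linker after it. They are shown because ZNF714, ZNF254, ZNF730 and ZNF724, which lie in 1 cluster, were among the 8 lowest members after siHNRNPA1, while ZNF324 was the highest. They were cut from the coding sequences of the GENCODE release 29 transcripts (GRCh38), on the coding strand and 5′ to 3′. Capitals in the first 4 mark the 57 bases that are identical in all 4 genes. Capitals in ZNF324 mark the 27 of those bases that it shares.
ZNF714: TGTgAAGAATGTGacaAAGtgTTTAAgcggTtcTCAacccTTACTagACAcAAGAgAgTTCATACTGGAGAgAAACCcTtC
ZNF254: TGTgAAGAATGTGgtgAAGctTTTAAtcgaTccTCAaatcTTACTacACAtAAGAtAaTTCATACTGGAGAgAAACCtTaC
ZNF730: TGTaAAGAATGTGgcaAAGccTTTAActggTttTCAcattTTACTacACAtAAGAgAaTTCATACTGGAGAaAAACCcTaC
ZNF724: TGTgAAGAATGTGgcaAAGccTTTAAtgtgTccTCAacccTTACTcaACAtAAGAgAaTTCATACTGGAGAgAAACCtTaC
ZNF324: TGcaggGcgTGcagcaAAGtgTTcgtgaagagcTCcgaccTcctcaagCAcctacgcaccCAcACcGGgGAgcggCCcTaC
Between the 4 genes of the cluster, 80.2% to 86.4% of the 81 bases were identical. Between ZNF324 and these 4, identity was 43.2% to 50.6%. These values hold for the finger shown only, and no pair of the stretches was identical over 31 bases in a row. Over whole transcripts, the median expressed member had 10.9% of the 31-base words of its leading transcript in transcripts of another gene. In 51 of the expressed members this share was 25% or more. Genes that overlap a member at the same locus, readthrough genes included, count as other genes here. A high share therefore need not come from near copies elsewhere. Values of such members are uncertain, since the authors' quantification had to divide reads between genes that share sequence.

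In the family as a whole, at a mean of at least 1 FPKM, the share of members lower after siHNRNPA1 was close to that of other genes. At a mean of at least 5 FPKM it was 26.4%, against 18.8% of all genes at that level. Of the 249 members, 190 (76.3%) had a mean of at least 1 FPKM over the 2 libraries, against 58.8% of all genes, and are called expressed members below. Their median level was 2.89 FPKM, against 8.51 FPKM over all expressed genes. Folds are log2((siHNRNPA1 + 1)/(control + 1)) of FPKM, which understates the fold of weakly expressed genes, and a member was counted as lower or higher from 2-fold on. By this measure 41 members were lower after siHNRNPA1, or 21.6% of those expressed, against a background of 21.9% over the 11921 genes that passed the same filter. The number higher was 16, or 8.42%, against a background of 12.4%. After the libraries were rescaled by the median ratio of all genes, the split was 35 lower and 23 higher, or 18.4% and 12.1% of members, against 18.4% and 16% of all expressed genes.

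The median fold of the expressed members was -0.31, with an SD of 0.88 between genes, and the median of all expressed genes was -0.13. Folds below 0 were found for 125 members and folds above 0 for 65. Of the 11921 expressed genes, 6533 had folds below 0 and 5388 above. The 190 summed to 999.9 FPKM after siHNRNPA1 and 1101 FPKM in the control, or 90.9% of control. All expressed genes summed to 111% of control in FPKM. In estimated counts scaled to library depth, the 190 were at 82.1% of control. The sums given below for clusters and motif classes are to be read beside the same 111%. In bulk RNA, fewer cells expressing a gene and less RNA per cell cannot be told apart.

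Some members passed the filter through 1 library alone. A total of 151 members reached 1 FPKM in both libraries, and 27 of these were lower and 11 higher. Of all genes, 10608 reached it in both libraries, and 1963 of these were lower and 1334 higher. Counts given below for members at 1 FPKM in both libraries are to be read beside these. Another 30 members reached 1 FPKM only in the control library and 9 only in the siHNRNPA1 library. Just inside the filter were ZNF823, with 0.755 FPKM after siHNRNPA1 and 1.31 in the control, and ZNF223, with 0.607 and 1.49. Just outside were ZNF555, with 0.487 and 1.48 FPKM, and ZNF841, with 0.366 and 1.56. Over all 249 members, expressed or not, 163 had the higher FPKM in the control library and 81 in the siHNRNPA1 library.

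**Figure D1:**
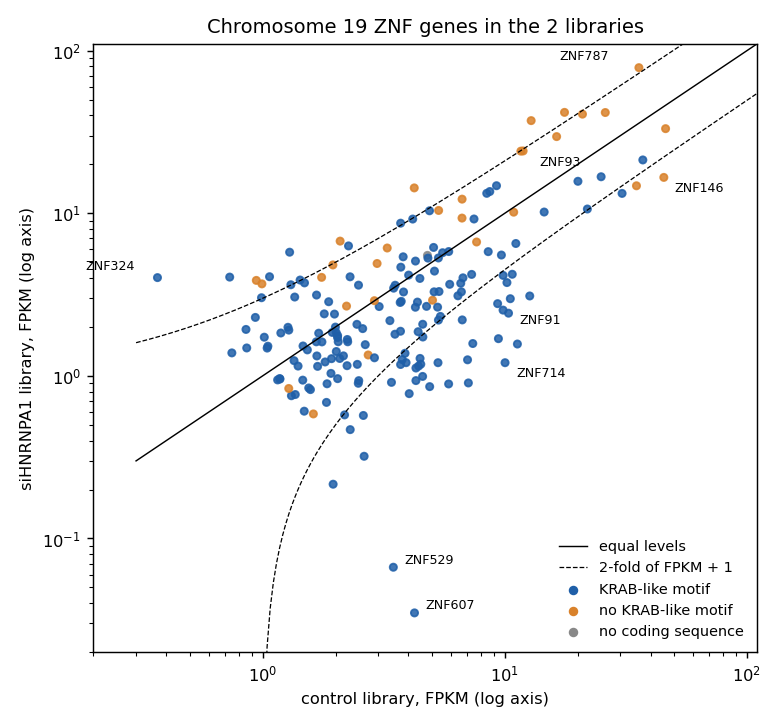
FPKM of each of the 190 expressed members in the control library (horizontal, log axis) and the siHNRNPA1 library (vertical, log axis), 1 point per gene, with the line of equal levels and dashed limits at 2-fold of FPKM + 1, which bend away from 2-fold of plain FPKM at low levels. Below the lower limit lie 41 members, among them ZNF607 and ZNF529 near the bottom, and above the upper limit lie 16, among them ZNF324 and ZNF787.

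The 8 lowest members (by fold, among those with at least 2 FPKM in either library) were all KRAB genes, and each had at least 3.47 FPKM in the control library. ZNF607 (ENSG00000198182, chromosome 19, 37696363 to 37719790, minus strand, GRCh38) was at 0.0348 FPKM after siHNRNPA1 (95% counting interval 0.0128 to 0.0759) and at 4.24 FPKM in the control (3.89 to 4.61). This is a fold of -2.34 from 6 and 531 estimated counts, and part of the gene overlaps the clone-named gene AC093227.3 on the same strand. ZNF714 (ENSG00000160352, 21082159 to 21125270, plus strand) was at 1.21 FPKM (1.05 to 1.38) and 10.03 FPKM (9.40 to 10.7), or 12.02% of control. ZNF254 (ENSG00000213096, 24033405 to 24129961, plus strand) was at 1.57 FPKM (1.36 to 1.80) and 11.3 FPKM (10.7 to 11.9), or 13.9% of control. For all 3, the counting intervals of the libraries lay far apart.

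The other 5 of the lowest showed the same order of difference. ZNF529 was at 0.0665 FPKM after siHNRNPA1 and 3.47 FPKM in the control, from 12 and 372 counts. ZNF730 was at 0.905 and 7.08 FPKM, and ZNF724 at 0.892 and 5.86 FPKM. The latter pair are neighbours in 1 cluster, and 64.0% of the 31-base words of ZNF724 occur in other genes. The clone-named gene AC092329.3 overlaps ZNF724 on the same strand. ZNF525 was at 1.69 and 9.42 FPKM, and ZNF850, which has 30 fingers by the pattern searched, was at 1.26 and 7.02 FPKM.

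The 8 highest members lay in clusters at 43.5 to 45.1 Mb and 55.5 to 58.5 Mb. ZNF324 (ENSG00000083812, 58467045 to 58475436, plus strand) was at 4.02 FPKM after siHNRNPA1 (3.65 to 4.42) and 0.368 FPKM in the control (0.284 to 0.469). Its fold was 1.88, from 432 and 65 counts, and part of it overlaps ZNF446 on the same strand. Its near copy ZNF324B was at 4.05 and 0.731 FPKM (fold 1.54). ZNF671 was at 5.76 and 1.29 FPKM, or 446% of control.

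ZNF296 was at 14.3 and 4.23 FPKM and ZNF428 at 37.2 and 12.9 FPKM, with folds of 1.55 and 1.46. ZNF524 was at 6.74 and 2.09 FPKM and ZNF497 at 3.87 and 0.942 FPKM, both with a fold of 1.33. ZNF264 was at 4.07 and 1.07 FPKM, with a fold of 1.29 that rests on a leading transcript of only 705 bases. In estimated counts scaled to library depth, its log2 ratio was 0.76, so it did not reach 2-fold there. Over the 2-fold members as a whole, 38 of the 41 lower and 14 of the 16 higher were also past 2-fold in estimated counts. No pseudocount was added to these counts, so that limit is easier to reach than the limit in FPKM + 1. Among all expressed members, 14 had folds of opposite sign in FPKM and in estimated counts.

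The promoters of the 2 opposite members ZNF714 and ZNF324 are shown for orientation, as RefSeq gives them on GRCh38.p14, from 250 bases before to 50 bases after the start. Capitals mark a GC box, the site type of SP1-like factors, searched as GGGCGG or CCGCCC on both strands. ZNF714 occupies chr19:21081953-21082252, plus strand, and ZNF324 chr19:58466830-58467129, plus strand.
ZNF714: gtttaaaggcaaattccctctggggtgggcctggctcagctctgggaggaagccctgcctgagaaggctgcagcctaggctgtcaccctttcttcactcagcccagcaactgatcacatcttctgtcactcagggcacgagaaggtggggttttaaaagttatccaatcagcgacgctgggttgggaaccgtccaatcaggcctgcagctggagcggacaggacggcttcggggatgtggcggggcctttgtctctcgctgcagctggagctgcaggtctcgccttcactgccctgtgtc
ZNF324: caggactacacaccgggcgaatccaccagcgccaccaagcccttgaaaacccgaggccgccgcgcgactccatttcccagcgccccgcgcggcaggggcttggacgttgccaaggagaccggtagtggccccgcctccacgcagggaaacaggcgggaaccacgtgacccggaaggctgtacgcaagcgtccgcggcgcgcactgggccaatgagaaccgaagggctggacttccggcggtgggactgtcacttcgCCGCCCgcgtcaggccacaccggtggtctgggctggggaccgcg
The ZNF714 promoter held 0 GC boxes, 10 CpG dinucleotides and 59% GC. The ZNF324 promoter held 1 GC box, 35 CpG dinucleotides and 69.7% GC. Among members with a RefSeq promoter, the median was 18 CpG dinucleotides and 59% GC in the 37 lower members matched, and 29 and 63.3% in the 14 higher members matched. A GC box was found in 73.0% of the former and in 64.3% of the latter. The share was 68.6% over the 169 expressed members matched, 72.6% over all expressed genes matched and 44.6% over the 27305 promoters of the table.

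Along the chromosome the folds differed by cluster. A new cluster was begun wherever more than 1 Mb separated members, which gave 16 groups. The letters A to I, in order of position, name the 9 clusters with at least 3 expressed members, and these hold 183 of the 190. Members at 19.7 to 24.1 Mb (D), 36.2 to 37.8 Mb (F) and 51.6 to 53.6 Mb (H) had mostly folds below 0 after siHNRNPA1 (23 of 28, 14 of 17 and 31 of 34), while 30 of the 51 at 55.5 to 58.5 Mb (I) had folds above 0. Of the 11921 expressed genes, 6533 lay below 0 and 5388 above. Clusters D, F and H held 35 of the 41 lower members and 1 of the 16 higher ones, and cluster I held 10 of the higher. Lower members were 53.6% of those expressed in D, 41.2% in F and 38.2% in H, against 21.9% of all expressed genes. In I, 19.6% were higher, against 12.4%. The median GC content of the leading transcripts was 39.6% in D, 39.4% in F and 40.8% in H. Among expressed genes outside the family at 30.2% to 42.0% GC, 49.0% were lower. Of the expressed members of D, F and H, 9, 6 and 5 had passed the filter only through the control library.

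**Figure D2:**
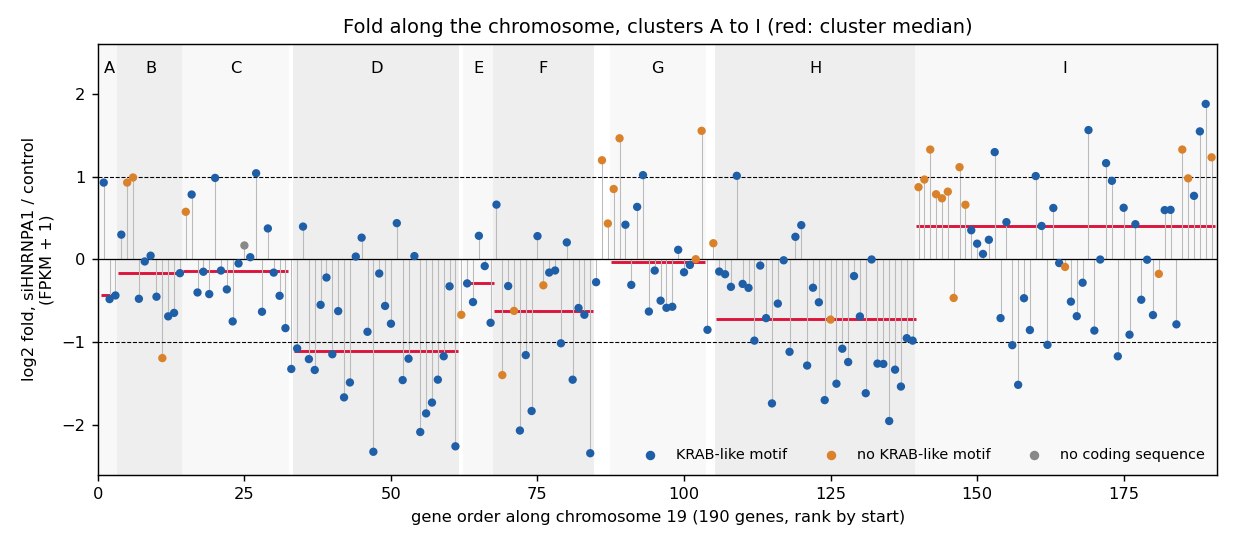
Fold of each of the 190 expressed members (vertical, log2 of siHNRNPA1 over control) in their order along chromosome 19 (horizontal, rank by start), coloured by the KRAB-like motif, with clusters A to I shaded and cluster medians in red. The medians of D, F and H lie at -1.11, -0.62 and -0.72, and the median of I at 0.40.

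Cluster D, near the centromere, is the home of the ZNF91 family, a primate expansion of KRAB genes. It had 36 members in the table and 28 expressed, all 28 with a KRAB-like motif. Past 2-fold, 15 were lower and 0 higher, with 23 folds below 0. The 28 summed to 100.4 FPKM after siHNRNPA1 and 217 FPKM in the control, or 46.4% of control (42.5% in estimated counts).

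Within cluster D the members ranged from ZNF714 (-2.32) to ZNF493 (0.44, with 1.73 FPKM after siHNRNPA1 and 1.02 in the control). The most abundant was ZNF738, at 21.3 FPKM and 37.2 FPKM, in whose coding sequence no complete finger was found by the pattern. ZNF737 was at 0.859 and 4.90 FPKM, ZNF626 at 0.992 and 4.58 FPKM, and ZNF675 at 2.78 and 9.35 FPKM. Not all neighbours were low: ZNF43 was at 5.72 and 5.54 FPKM, ZNF85 at 4.66 and 3.72 FPKM, and ZNF66 at 1.53 and 1.47 FPKM. These 6 were chosen after their values were seen, to show the spread. Of the 19 members with at least 1 FPKM in both libraries, 7 were lower. The median share of 31-base words found in other genes was 20.4%, and when members with 25% or more were left out the cluster median was -0.87.

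Cluster F had 17 expressed members of 26, with 7 lower and 0 higher. Among the 10 with at least 1 FPKM in both libraries, 3 were lower. The 17 summed to 39.9 FPKM after siHNRNPA1 and 93.4 FPKM in the control, or 42.7% of control. The most abundant was ZNF146 (ENSG00000167635, 36214602 to 36238774, plus strand), a protein made up of little but zinc fingers and without KRAB. It was at 16.6 FPKM (15.9 to 17.4) and 45.4 FPKM (44.1 to 46.7), or 36.6% of control. ZNF607, ZNF529 and ZNF850 lie in this cluster too. The highest member was ZNF565, at 1.93 and 0.853 FPKM, and ZNF568, a KRAB gene whose mouse counterpart represses a placental transcript of Igf2, was at 1.77 and 2.04 FPKM.

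Cluster H had 34 expressed members of 40, with 13 lower, 1 higher and 31 folds below 0. Of the 29 with at least 1 FPKM in both libraries, 11 were lower. The 34 summed to 105.8 FPKM after siHNRNPA1 and 200.1 FPKM in the control, or 52.9% of control. ZNF525 was lowest, as given above. The most abundant, ZNF649, was at 15.7 FPKM and 20.1 FPKM, a fold of -0.33. ZNF613 was the 1 member past 2-fold in the other direction, at 3.89 and 1.43 FPKM, just past the limit (fold 1.01). Leaving out members with 25% or more shared words moved the median of H from -0.72 to -0.34.

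Clusters A, C and E had 0 members past 2-fold lower and cluster B had 1. Cluster A at 2.8 to 2.9 Mb had 3 expressed members: ZNF554 at 3.73 and 1.49 FPKM, ZNF57 at 2.84 and 4.36 FPKM, and ZNF77 at 1.28 and 2.08 FPKM. In cluster B at 7.1 to 9.8 Mb (11 expressed, median -0.17), ZNF121 was at 14.8 FPKM and 35.0 FPKM (fold -1.19), while ZNF358 was at 40.7 and 20.9 FPKM and ZNF414 at 24.1 and 11.7 FPKM. ZNF121 has a leading transcript of 7177 bases at 40.4% GC, and those of ZNF358 and ZNF414 are 69.1% and 67.5% GC.

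In cluster C at 11.5 to 12.6 Mb (18 expressed, median -0.14), ZNF69 was at 9.22 and 4.17 FPKM and ZNF791 at 3.29 and 6.62 FPKM. ZNF625, the 1 member of C past 2-fold, was at 8.69 and 3.71 FPKM (0.64 as a log2 ratio of estimated counts), but 95.8% of the words of its leading transcript of 695 bases occur in other genes, the readthrough gene ZNF625-ZNF20 included. Cluster E at 34.7 to 35.0 Mb had 5 expressed members with folds from ZNF792 (-0.77, 1.29 and 2.90 FPKM) to ZNF599 (0.28, 2.41 and 1.80 FPKM). In estimated counts scaled to library depth, the log2 ratio of ZNF599 was -0.16, from 86 and 91 counts. The most abundant member of E, ZNF302, was at 2.87 and 3.74 FPKM. None of the 5 reached 2-fold.

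Cluster G at 43.5 to 45.1 Mb had 16 expressed members, 0 lower and 3 higher (18.8%, against 12.4% of all expressed genes). They summed to 90.5 FPKM after siHNRNPA1 and 52.7 FPKM in the control, or 172% of control, while the median fold was -0.03. Much of the sum came from ZNF428, ZNF296 and ZNF576, all without a KRAB-like motif, the last of which was at 10.4 and 5.33 FPKM. Among the KRAB genes of G, ZNF222 was at 3.03 and 0.989 FPKM and ZNF223 next to it at 0.607 and 1.49 FPKM. Of the words of ZNF223, 89.1% occur in other genes, and the clone-named gene AC067968.1 overlaps it on the same strand. ZNF576 and ZNF222 were picked after their values were seen. The median of G lay above 0, at 0.07, with median ratio scaling and at 0.43 in estimated counts scaled to library depth.

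Cluster I, at the end of the long arm, was the largest and the one cluster with a median above 0. It had 51 expressed members of 59, with 4 lower and 10 higher, and the 51 summed to 420.4 FPKM after siHNRNPA1 and 317 FPKM in the control, or 133% of control. Of the 43 with at least 1 FPKM in both libraries, 4 were lower and 6 higher. Its first stretch, 55.48 to 55.65 Mb, held 7 expressed members without KRAB and with a median GC content of 67.8%. Of these, 6 had folds above 0, with a median of 0.82 over the 7, and ZNF581, named for this after its values were seen, was the exception at 33.2 and 46.2 FPKM. The stretch at 56.09 to 56.67 Mb had 6 expressed members, all above 0. It includes ZNF787 (ENSG00000142409, 56087366 to 56121280, minus strand), at 78.7 FPKM (76.5 to 80.9) and 35.8 FPKM (34.3 to 37.4), the most abundant member in the siHNRNPA1 library.

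The stretch at 57.19 to 58.48 Mb was mixed. Of 38 expressed members, 4 were lower and 8 higher, with a median of -0.003. ZNF749 was lowest at 1.21 and 5.30 FPKM, and ZNF587 was at 4.22 and 10.7 FPKM. In the same stretch ZNF671, ZNF264, ZNF497, ZNF324B and ZNF324 were among the 8 highest members of the whole family. Folds of both signs lay within short distances there. ZNF587B was at 10.4 and 4.89 FPKM and ZNF814 at 14.8 and 9.25 FPKM, on both sides of ZNF587. Neither of these neighbours reached 2-fold of FPKM + 1. ZNF587B and ZNF814 were taken for their position after their values had been seen, and 49.1% of the words of ZNF587 occur in other genes.

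Outside these clusters lay 7 expressed members. ZNF333 at 14.7 Mb was at 1.12 FPKM and 4.30 FPKM (fold -1.32), and ZNF574 at 42.1 Mb was at 41.8 and 17.7 FPKM (fold 1.20). ZNF526 beside it was at 9.34 and 6.66 FPKM. ZNF507, ZNF780A and ZNF473, the last of which is part of histone pre-messenger RNA processing, had folds of -0.67, -0.28 and 0.20. ZNF114 at 48.3 Mb was at 3.11 and 6.41 FPKM, a fold of -0.85.

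The median folds of members with and without a KRAB-like motif had opposite signs. A KRAB-like motif was found in the coding sequence of 210 members and not in 38, while ZNF788 has no coding sequence in the annotation. Of the 210, 159 were expressed. Among them 39 were lower (24.5%) and 9 higher (5.66%), with a median fold of -0.44 and 43 folds above 0; the background shares were 21.9% and 12.4%. Of the 124 with at least 1 FPKM in both libraries, 25 were lower and 6 higher, and 28 of the 159 had passed the filter only through the control. The 159 summed to 503 FPKM after siHNRNPA1 and 745 FPKM in the control, or 67.6% of control. Of the 30 expressed members without the motif, 2 were lower (ZNF146 and ZNF121) and 7 higher (23.3%). Their median fold was 0.76, and they summed to 491 FPKM and 351 FPKM, or 139.9% of control. The motif search missed ZNF473 and ZNF180, which are known as KRAB genes, so the class without it is not free of KRAB.

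Transcript composition moved with this split. The median GC content of the leading transcript was 42.4% in the members with the motif and 62.8% in those without. After the median fold of the 100 genes nearest in mean expression, GC content and transcript length had been subtracted from each gene, the medians were 0.26 with the motif and 0.27 without. In cluster I, the 37 members with the motif had a median fold of 0.07 and the 14 without had 0.84, at 46.4% and 66.8% GC. With and without the motif, medians were -0.31 (8 members) and 0.93 (3) in B, and -0.15 (12) and 1.16 (4) in G. In F they were near equal, at -0.63 (14) and -0.62 (3), with 40.3% and 38.6% GC. Clusters C and H had 1 member without it, at 0.57 against -0.15 and at -0.73 against -0.71.

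**Figure D3:**
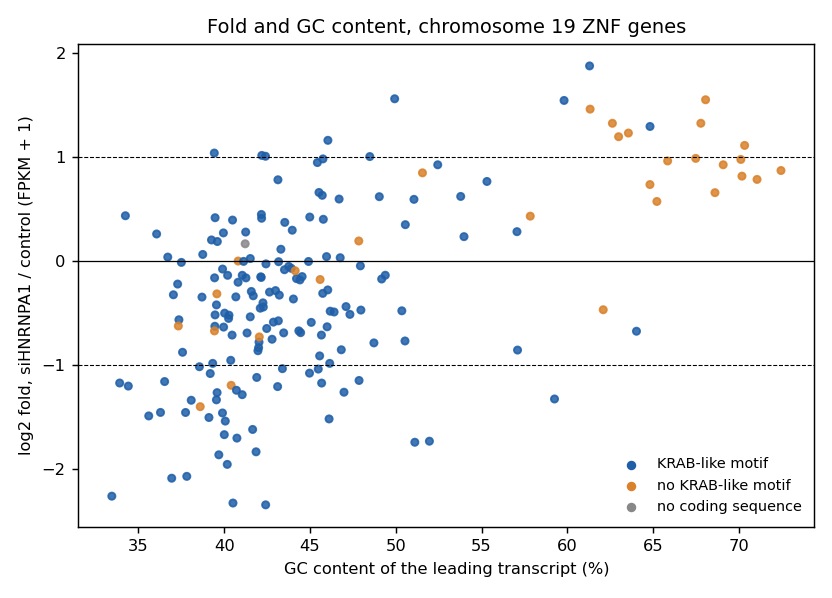
Fold of each expressed member (vertical, log2) against the GC content of its leading transcript in percent (horizontal), coloured by the KRAB-like motif, with dashed lines at 2-fold. The 41 lower members have a median GC content of 40.2% and the 16 higher members one of 61.3%.

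GC content went with the fold in the family and in the transcriptome alike. The 41 lower members had a median GC content of 40.2% and a median leading transcript of 3743 bases, and the 16 higher members had 61.3% and 1972 bases. Spearman's rho between fold and GC content was 0.48 across the 190 members and 0.58 across all expressed genes, which all come from the same 2 libraries. Among the expressed genes of lowest GC content (30.2% to 42.0%), 29 of 75 members were lower (38.7%), against 49.0% of the other genes in that range. Between 42.0% and 47.4%, 8 of 68 members were lower (11.8%), against 34.6% of the others. In the highest range, 59.8% to 76.8%, 10 of 22 members were higher (45.5%), against 28.2% of the others. Thus at low GC content the share of members lower was below that of other genes.

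Subtracting the nearest genes turned the family's median from -0.31 to 0.26, with 17 members lower and 27 higher. These are 8.95% and 14.2% of members, against 8.38% and 8.14% of all expressed genes under the same subtraction. Clusters B, C, G and H, whose medians were below 0 as deposited, had medians above 0 after it (0.44, 0.43, 0.63 and 0.21). Cluster D stayed lowest, at -0.14, with 8 members lower and 3 higher. Clusters F and I were at -0.01 and 0.43. Of the 8 lowest members named above, ZNF607 (-1.63), ZNF714 (-1.47), ZNF730 (-1.19), ZNF724 (-1.12), ZNF529 (-1.10) and ZNF254 (-1.03) were still past 2-fold, while ZNF525 (-0.80) and ZNF850 (-0.61) were not. Of the 8 highest, ZNF671 (1.72), ZNF324 (1.69), ZNF324B (1.46) and ZNF497 (1.16) were past it.

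**Figure D4:**
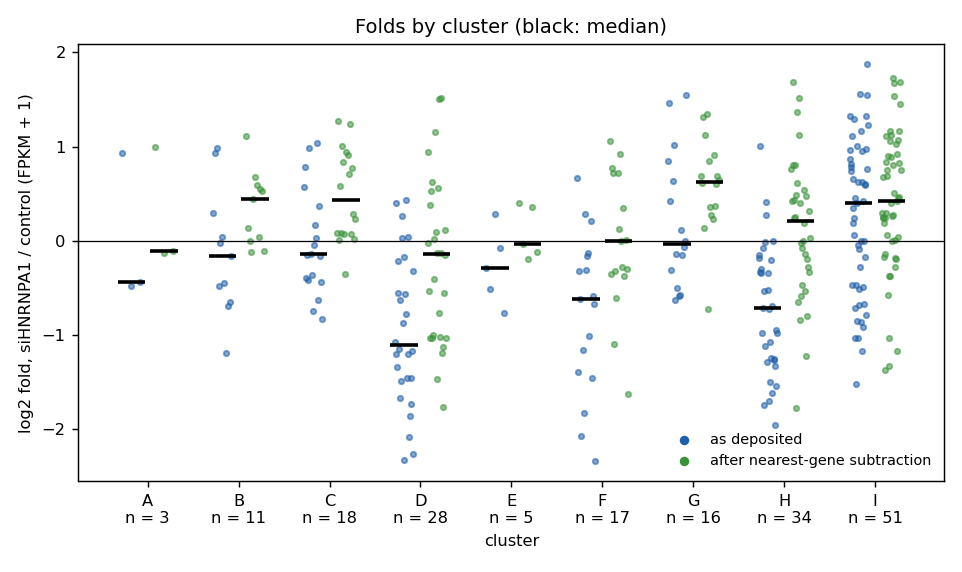
Fold of each expressed member by cluster, as deposited (blue) and after subtraction of the median fold of its 100 nearest genes (green), with medians in black and the number of members under each letter. The median of cluster D moves from -1.11 to -0.14 and that of cluster H from -0.72 to 0.21, while cluster I stays at 0.40 and 0.43.

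The rest of the chromosome and the rest of the ZNF genes gave 2 points of reference. The 782 other expressed genes of chromosome 19 had a median fold of 0.54, with 25 lower and 209 higher, at a median GC content of 61.2% against 43.1% in the members. The 195 expressed ZNF genes of other chromosomes had a median of -0.26, with 52 lower (26.7%) and 18 higher, at 48.1% GC. After the subtraction, these medians were 0.01 and 0.05. Zinc finger genes of chromosome 19 under other names (ZFP, ZSCAN and the like) numbered 13 in the table and 8 expressed, with ZFP14 lower (-1.03) and ZSCAN22 higher (1.10).

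hnRNP A1 binds RNA at sites like UAGGG. The letters TAGGG were found in the leading transcript of 117 of the 190 expressed members (61.6%) and in 63.0% of the other expressed genes. The median was 0.28 per kilobase in the members and 0.32 in the others. It was 0.26 in the lower members and 0 in the higher ones, whose transcripts are shorter.

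Members known to bind retroelements had folds below 0. Of a literature list of 12, 8 were expressed. All 8 had folds below 0, as did 6533 of the 11921 expressed genes. Of the 8, 4 (50%) were past 2-fold, against 21.9% of all expressed genes. Their median was -1.03 for all 8 (-0.23 after the subtraction, when ZNF93, ZNF649 and ZNF808 lay above 0). ZNF91, the repressor of SVA elements (ENSG00000167232, 23338749 to 23395560, minus strand), was at 2.43 FPKM after siHNRNPA1 (2.11 to 2.78) and 10.4 FPKM in the control (9.73 to 11.0). Its transcript of 5489 bases was at 0.967 and 5.07 FPKM and a fragment of 662 bases at 1.44 and 5.29 FPKM, so both were lower. ZNF93, which binds LINE elements, was at 16.8 FPKM (15.9 to 17.7) and 25.01 FPKM (23.9 to 26.2), a fold of -0.55.

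ZNF765, a LINE-binding member, was at 1.15 and 4.41 FPKM and ZNF649 at 15.7 and 20.1 FPKM. The related genes ZNF587 and ZNF417 bind endogenous retroviruses; ZNF417 was at 1.87 and 4.39 FPKM (fold -0.91), with 30 and 332 estimated counts. Its longest transcript, 3597 bases, was listed at 0 after siHNRNPA1 and at 2.08 FPKM in the control, and 54.4% of its words occur in other genes. ZNF90 was at 13.3 and 30.5 FPKM (fold -1.14), and ZNF808 at 1.22 and 1.81 FPKM. ZNF257, ZNF534, ZNF611 and ZNF98 were not expressed by the filter.

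Of the further members listed for known roles, ZNF274, which marks the 3′ ends of other zinc finger genes for silencing, was at 13.6 FPKM (12.8 to 14.5) and 8.67 FPKM (8.02 to 9.36), a fold of 0.59. ZNF331, an imprinted gene, was at 10.6 FPKM and 21.9 FPKM, just short of 2-fold (-0.98). In estimated counts scaled to library depth, its log2 ratio was -0.23. Its transcripts differ in length and took different shares in the 2 libraries, as given below. ZNF382 was not expressed by the filter.

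Transcript shares, a transcript's percentage of its gene's FPKM, differed by 20 points or more in 11 of the 33 members that had several transcripts and reached 5 FPKM in each library. Shares were computed for members only. Whether this count differs from that of other genes is therefore not known. The leading transcript was the same in both libraries in 29 of the 33. ZNF329 had the largest difference: ENST00000598312 held 79.0% of the control FPKM (641 counts) and was listed at 0 after siHNRNPA1. There ENST00000358067 held 80.3%, against 12.6% in the control. The gene's total was nearly equal, at 6.66 and 7.65 FPKM.

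In ZNF331, ENST00000253144, of 5042 bases, held 83.0% after siHNRNPA1 and 27.8% in the control, while ENST00000513999, of 1890 bases, held 0.14% and 37.9%. In ZNF256, ENST00000598928 held 48.3% in the control (252 counts) and 0.013% after siHNRNPA1 (1 count), and the gene was at 5.81 and 8.54 FPKM. In ZNF90, ENST00000418063 was at 1.61 FPKM after siHNRNPA1 and 15.9 FPKM in the control, while ENST00000469078 was at 11.6 and 14.5 FPKM. The difference in ZNF90 thus lay mostly in the first of these transcripts. The genomic spans of the transcripts named overlap within each gene, so the estimates can depend on how reads were divided between them. How much of their exons they share was not measured.

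**Figure D5:**
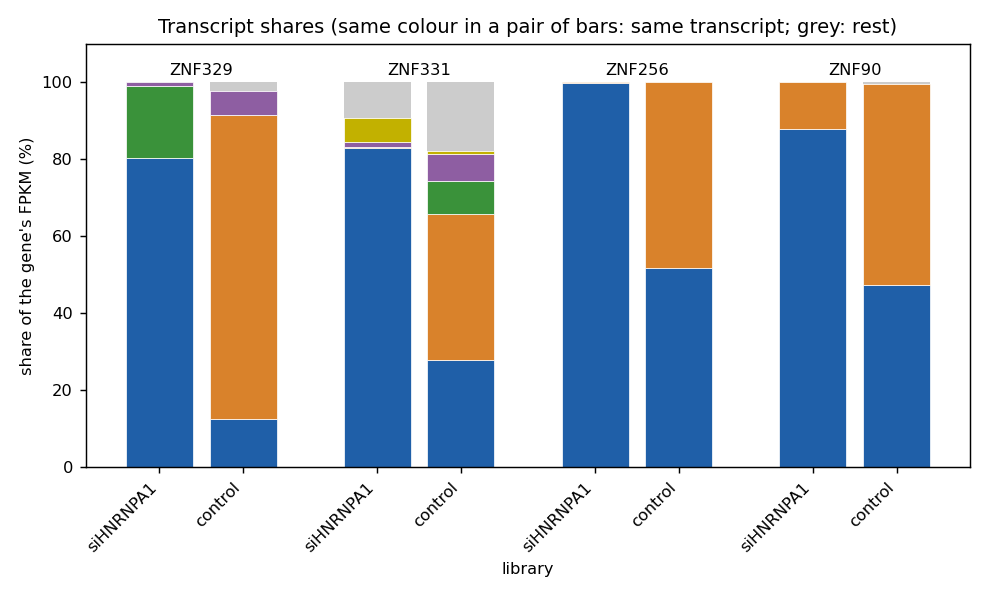
Share of each transcript in its gene's FPKM (vertical, percent) in the siHNRNPA1 and control libraries for the 4 members with the largest share differences; colours mark a transcript within a gene and grey the rest. In ZNF329 the transcript with 79.0% of the control FPKM is absent from the siHNRNPA1 bar, and in ZNF331 one transcript holds 83.0% after siHNRNPA1 and 27.8% in the control.

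The proteins that KRAB members work through gave mixed values. The corepressor list holds 33 genes, 1 of them under an older and a newer name, and all 33 were found and expressed. At least 2-fold lower were 10 (30.3%, against 21.9% of all expressed genes) and higher were 2 (6.06%, against 12.4%), with a median fold of -0.29. After the subtraction 1 was lower and 1 higher, with a median of -0.07. TRIM28, the direct partner of KRAB, was at 758 FPKM after siHNRNPA1 and 361 FPKM in the control (fold 1.07, and 0.50 after the subtraction). SETDB1 was at 17.6 and 23.9 FPKM (-0.42). The largest folds were those of MBD3 (2.13) and HDAC2 (-2.08), subunits of a deacetylase complex, of FAM208A (-1.80), the TASOR subunit of the HUSH complex, and of MORC3 (-1.69), which overlaps CHAF1B. In estimated counts scaled to library depth and without a pseudocount, the log2 ratio of HDAC2 was only -0.92. Those of MBD3, FAM208A and MORC3 were 2.22, -2.47 and -2.46.

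Members listed at 0 in a single library were weakly expressed in the other. After siHNRNPA1 only, 7 were listed at 0. Of these, ZNF284 was at 1.01 FPKM in the control (137 counts), ZNF177 at 0.915 (48 counts), ZNF490 at 0.701 (93 counts) and ZNF534 at 0.364 (23 counts), and ZNF98, ZNF556 and ZNF676 had at most 4 counts. In the control only, ZNF625-ZNF20 was listed at 0 against 1.13 FPKM (58 counts), and ZNF208 and ZNF99 had 1 count each after siHNRNPA1. A further 5 members were at 0 in both libraries. None of these passed the filter, and a listed 0 can also come from the division of reads between transcripts.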

How the data were processed

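RNA-seq values of 2 libraries of H9 cells were analysed, 1 per condition. The labels' protocols name a Qiagen column kit for the RNA and an mRNA kit for the Illumina libraries. Per the file headers, the authors deposited for each of 95139 transcripts a count, a TPM and an FPKM. The deposited counts are whole, yet transcripts that overlap each other all have counts, so these values of the authors are taken as rounded, estimated counts. The deposited TPM and FPKM values are normalized by transcript length and depth. The aligner, the quantification program and the use of strand are not stated in the labels or headers used here. GRCm38 and mm10 appear in the submitters' processing notes, but the identifiers are human, and 95033 transcripts are in GENCODE release 29 (GRCh38). Another 6 per-sample columns, headed A2 and C3 beside the A1 (siHNRNPA1) and C2 (control) used here, matched no label of these libraries and were not analysed here.

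FPKM was summed per gene. Genes with a mean of at least 1 FPKM were kept, a pseudocount of 1 FPKM was added, and 2-fold was the limit for a call. Log2 ratios of estimated counts of single genes had no pseudocount, while medians in estimated counts had one. No test was run, because each condition has 1 library. Counting intervals (exact Poisson, or Clopper-Pearson for ratios of counts, 95%) treat estimated counts as independent reads and cover counting error only. The median count per expressed member was 232 after siHNRNPA1 and 299.5 in the control. GC content, length and 31-base words came from the GENCODE sequence of the most abundant transcript. For some members this was a short transcript, as in ZNF91 (662 bases at 52.0% GC). Their values after the subtraction rest on genes matched to that transcript. The KRAB-like motif and the finger pattern were searched in translated GENCODE coding sequences, since no protein table was used, and the motif was widened after it had missed known KRAB genes. Promoters came from RefSeq (GRCh38.p14). The subtraction of the 100 nearest genes was tested on simulated data with a trend in GC content and counting noise only. Changes larger than the 2-fold limit were put in, and only into genes of at least 5 FPKM. How it does for weaker members, smaller changes or shared reads was not tested.

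Genes named are HNRNPA1, the 8 lowest and 8 highest folds among members with at least 2 FPKM in a library, and the most abundant, lowest and highest member of each cluster. Also named are the listed retroelement binders and 6 members of known role, the 4 largest transcript share differences, TRIM28, SETDB1 and the 4 largest folds of the corepressor list, and members nearest the filter or at 0 in a single library. Further genes are marked where they were chosen after their values were seen. The members and lists were chosen with earlier results of these data known. Python 3.11.15, pandas 2.3.3, NumPy 2.4.6, SciPy 1.17.1, Biopython 1.88 and matplotlib 3.10.9 were used.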

Additional observations from a re-analysis of the deposited data

How the results depend on the processing

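Alternatives changed 1 choice at a time: pseudocount, filter, unit, scaling, subtraction of the nearest genes, overlapping members, shared sequence and cluster gap. The median of all expressed genes moved from -0.13 to -0.28 in TPM and to 0.00 with median ratio scaling. With a pseudocount of 5 FPKM, 8 members were lower (4.21%, against 7.94% of all expressed genes) and 4 higher (2.11%, against 7.05%). The members' median was then -0.13, that of other chromosome 19 genes 0.38 and that of cluster D -0.48. With a pseudocount of 0.1 FPKM, 55 were lower (28.9%, against 27.0% of all expressed genes) and 26 higher (13.7%, against 15.3%). The medians of other chromosome 19 genes and cluster A were then 0.59 and -0.60. With a mean of at least 5 FPKM, 14 of 53 members were lower (26.4%, against 18.8% of all genes at that level) and 5 higher (9.43%, against 15.9%). Of the 7 clusters with members left, 4 had medians below 0 (8 of 9 as deposited). Clusters C and G, with 3 and 4 members left, had medians of 0.98 and 1.16. Other chromosome 19 genes and ZNF genes elsewhere had 0.61 and 0.16. With any mean above 0, other chromosome 19 genes had a median of 0.33. In TPM the members' median was -0.49, that of cluster A -0.65 and that of other chromosome 19 genes 0.42. With median ratio scaling the last was 0.67, and in estimated counts scaled to library depth 0.60 (cluster A: -0.50). With the nearest genes subtracted, 17 members were lower and 27 higher, and the members' median was 0.26. Medians were then 0.0503 for ZNF genes elsewhere and 0.00741 for other chromosome 19 genes, the difference of members with and without the motif was -0.0184 (-1.20 as deposited), 4 of 9 clusters lay below 0, clusters C, D, F and H had 0.43, -0.14, -0.00659 and 0.21, and ZNF121 turned from -1.19 to 0.0448. Without members sharing 25% or more of their words, 26 were lower (18.7%, against 21.9% of all expressed genes) and 10 higher (7.19%, against 12.4%). Median ratio scaling and estimated counts each gave 7 of 9. A gap of 2 Mb gave 5 of 6 cluster medians below 0 and one of 0.5 Mb 9 of 10. Counting share differences from 10 FPKM on gave 5 members instead of 11. The cause of these differences was not tested. Depth limits weak members most: the median half-width of the counting interval of a log2 ratio was 0.27 and the largest 1.29. No paired analysis was possible because each condition has 1 library.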
